A study of Mus musculus with 104 samples.

Results

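Fos-high and Fos-low control neurons are the 2 ends of a ranking of 66 single neurons, titled control, by the level of the Fos transcript. Members were chosen by their measured Fos level: the 22 neurons with the most Fos (Fos-high) were set against the 22 with the least (Fos-low), out of 104 neurons in the series. Levels are CPM, a gene's count divided by the library's summed gene counts without spike-ins and scaled to a common total. Fos stood at 815 to 2880 CPM (median 1187) in Fos-high neurons and at 0.902 to 370.2 CPM (median 184) in Fos-low neurons. The next library below the Fos-high group had 798 CPM and the next above the Fos-low group 384 CPM, so both limits cut a continuous range. These Fos values chose the groups and are not a finding.

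The study built fluorescent reporters to watch Lewy pathology, the alpha-synuclein aggregates of Parkinson disease, in live brain. Patch pipettes drew the content of single cells from mouse brain slices that had rested in warmed and then room-temperature artificial cerebrospinal fluid, and Smart-seq2 turned their RNA into full-length cDNA. The titles name 38 neurons experiment and 66 control, and each is labelled a dopaminergic neuron of the substantia nigra. The labels give no genotype, reporter, age or animal for the control neurons. Since no animal is named, each end counts as 1 sample, no test between the ends was made, and every control value below is a description of these libraries.

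Fos is an immediate early gene: it is transcribed within minutes of a stimulus without the need for new protein, and in neurons calcium entry and cyclic AMP are the usual triggers. Its protein pairs with Jun proteins to form AP-1, a factor that binds regulatory DNA. The same signals switch on other early genes, among them transcription factors, phosphatases and RNA-binding proteins that end the response, and slower effectors that act at synapses or outside the cell. In dopaminergic neurons of the substantia nigra, which fire as pacemakers and take up calcium with each cycle, early genes are widely used as a mark of recent activity or stress.

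The promoters of some of these genes hold a cyclic AMP response element (CRE), the site bound by the activity-regulated factor CREB. The windows of 5 genes are shown because the results set them against each other: 3 early genes whose levels were higher with Fos, and 2 genes with a full element whose levels differed little. Each runs from 250 bases before to 50 bases after the gene's start in RefSeq (GRCm38.p6), written 5′ to 3′ on the gene's strand. Capitals mark the full element TGACGTCA or its shorter core TGACG on either strand. Dusp1 lies at chr17:26508423-26508722, Btg2 at chr1:134079106-134079405, Fosb at chr7:19309996-19310295, Scg2 at chr1:79439977-79440276 and Th at chr7:142899946-142900245, each on the minus strand.
Dusp1: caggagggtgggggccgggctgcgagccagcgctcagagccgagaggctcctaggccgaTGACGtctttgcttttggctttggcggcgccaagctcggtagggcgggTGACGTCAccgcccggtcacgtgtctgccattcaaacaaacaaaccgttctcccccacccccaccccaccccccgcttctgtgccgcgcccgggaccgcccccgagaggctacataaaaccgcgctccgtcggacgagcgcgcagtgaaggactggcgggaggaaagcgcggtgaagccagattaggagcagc
Btg2: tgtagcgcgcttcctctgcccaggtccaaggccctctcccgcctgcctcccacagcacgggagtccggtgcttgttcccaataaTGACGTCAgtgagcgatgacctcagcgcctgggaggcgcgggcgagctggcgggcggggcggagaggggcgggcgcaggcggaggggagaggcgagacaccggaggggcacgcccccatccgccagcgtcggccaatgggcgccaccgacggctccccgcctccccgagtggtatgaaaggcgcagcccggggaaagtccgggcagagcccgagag
Fosb: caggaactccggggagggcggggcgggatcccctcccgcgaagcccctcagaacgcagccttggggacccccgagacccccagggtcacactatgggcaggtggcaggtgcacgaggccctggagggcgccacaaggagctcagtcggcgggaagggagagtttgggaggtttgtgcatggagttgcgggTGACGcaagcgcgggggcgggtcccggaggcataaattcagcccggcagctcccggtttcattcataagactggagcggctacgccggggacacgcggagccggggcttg
Scg2: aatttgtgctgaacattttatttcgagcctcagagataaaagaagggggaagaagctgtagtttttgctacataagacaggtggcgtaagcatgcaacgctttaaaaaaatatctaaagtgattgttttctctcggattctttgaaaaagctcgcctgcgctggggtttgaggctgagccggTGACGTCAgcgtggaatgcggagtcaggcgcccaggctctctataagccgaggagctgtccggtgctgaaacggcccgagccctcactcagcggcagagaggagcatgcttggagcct
Th: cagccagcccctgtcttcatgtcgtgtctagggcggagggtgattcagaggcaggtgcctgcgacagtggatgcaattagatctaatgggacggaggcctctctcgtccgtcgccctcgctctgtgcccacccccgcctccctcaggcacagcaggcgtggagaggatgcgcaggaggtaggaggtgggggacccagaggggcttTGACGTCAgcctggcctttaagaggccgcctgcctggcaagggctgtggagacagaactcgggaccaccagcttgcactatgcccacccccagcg

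Fos-high libraries held 426361 to 2577694 gene counts (median 1196686.5), against 153770 to 2443960 (median 952394) in Fos-low libraries. Genes with a count numbered 8766 in the median Fos-high library and 8755.5 in the median Fos-low library. With each library thinned to 400000 counts and 3 shallower Fos-low libraries set aside, these medians became 8044.5 in Fos-high and 8566 in Fos-low libraries. Spike-ins (ERCC) took a median of 0.256% of counts in Fos-high and 0.223% in Fos-low libraries. Th, a defining transcript of the labelled cell type, had at least 1128 CPM in every Fos-high library and at least 4194 CPM in every Fos-low library. The summed dopaminergic identity list ranged from 3996 to 42467 CPM in Fos-high and from 10928 to 40536 CPM in Fos-low libraries. Its lowest Fos-high sums were in controls 5 (3996 CPM) and 7 (5239 CPM), where GABAergic markers summed to 930 and 1097 CPM. The highest GABAergic sum of a Fos-low library was 791 CPM.

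The 2 ends drew unequally on the series. Control titles run from 1 to 10, 15 to 37 and 38 to 72, with a change of letter case after 37, and the labels do not call these blocks batches. Fos-high neurons came from the 3 blocks in numbers of 8, 5 and 9, and Fos-low neurons in numbers of 0, 9 and 13. Controls 1 to 10 had a median of 0.623% of gene counts from the mitochondrial genome, against 2.40% and 3.78% in the later blocks. Their summed oligodendrocyte markers had a median of 2147 CPM, against 790.2 and 289.7 CPM. Results below are therefore also given for neurons ranked by Fos within each block (3, 7 and 12 from each end, 22 against 22) and without controls 1 to 10 (14 against 22), both added after seeing the data. The within-block ends share 17 Fos-high and 19 Fos-low libraries with the full ranking. Control 4 (949 CPM of Fos) is at the low end of its block, and control 25 (741 CPM) at the high end of its own. Ranking within blocks thus also narrows the gap in Fos, and the 2 changes were not separated.

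**Figure D1:**
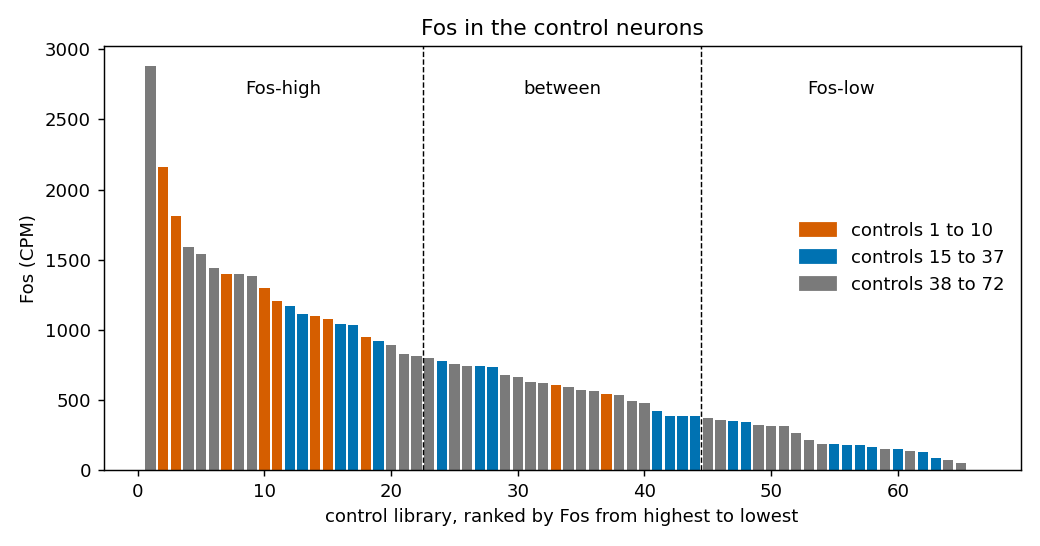
Fos (CPM) in the 66 control libraries, ranked from highest to lowest, with 1 bar per library coloured by its block of title numbers. Dashed lines bound the 22 Fos-high and 22 Fos-low libraries. Of controls 1 to 10, 8 stand among the Fos-high and none among the Fos-low.

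A gene was called higher or lower when it was at least 1.5-fold apart by both the pooled CPM (summed counts over summed totals) and the mean of the library CPM, and when the Fos-high library stood above the Fos-low one in at least 0.65 (or at most 0.35) of the 484 possible pairs, ties split evenly. Of 9138 expressed genes, Fos left out, 456 were called higher in Fos-high neurons, which is 4.99%, and 197 lower, which is 2.16%. Over all expressed genes the log2 ratio had a median of 0.04 and the share of pairs a median of 0.513. Among immediate early genes, 21 of 54 expressed members of 4 lists were called higher and 0 lower. That count was 14 when neurons were ranked within blocks, where 287 genes (3.14%) were called higher, and 11 of those 14 were among the 21. It was 15 without controls 1 to 10, with 14 of them among the 21.

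The 5 genes whose levels followed Fos most closely over the 66 control neurons, of 9138 ranked by Spearman's rho, were Dusp1 (0.664), Egr1 (0.593), Fosb (0.548), Junb (0.536) and Btg2 (0.501). All 5 are immediate early genes, and all 5 were called higher also when neurons were ranked within blocks and without controls 1 to 10. The 5 were picked by rho with Fos in the same libraries, so those calls are not independent of the choice. The 66 points share library depth and CPM scaling, and Fos itself had a rho of 0.25 with the gene counts of the library. Within controls 1 to 10, 15 to 37 and 38 to 72, rho with Fos was 0.224, 0.753 and 0.457 for Dusp1 and 0.188, 0.523 and 0.455 for Egr1.

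Among AP-1 genes other than Fos, Fosb, Junb and Jun were called higher in Fos-high neurons. Of 7 listed genes 5 were expressed, with 3 called higher, 0 lower and a median log2 ratio of 1.60. Within blocks 2 were called and the median was 0.43, and without controls 1 to 10 it was 1.25 with 3 called. Fosb, a Fos paralog that also dimerises with Jun proteins, ranged from 11.7 to 489 CPM (median 120.3) in Fos-high libraries and from 0 to 328 CPM (median 4.63) in Fos-low libraries. The ranges overlapped, yet each of the 22 Fos-high libraries lay above the Fos-low median, and a count was present in 22 Fos-high against 12 Fos-low libraries. The pooled ratio was 3.005 (exact 95% interval 2.81 to 3.22, which like every interval here covers counting error only). Control 60 held 49.1% of the Fos-low counts of Fosb, and without the highest library of each end the ratio was 4.82. It was 2.15 within blocks.

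Junb, a Jun protein that tempers Jun activity, ranged from 1.65 to 2368 CPM (median 271) in Fos-high and from 0 to 774 CPM (median 36.4) in Fos-low libraries, with a pooled ratio of 4.14 (3.96 to 4.34). Jun, the main partner of Fos in AP-1, ranged from 2.58 to 692 CPM (median 178) in Fos-high and from 0 to 279.7 CPM (median 34.8) in Fos-low libraries, with a ratio of 3.03 (2.87 to 3.20). For both, 20 of 22 Fos-high libraries exceeded the Fos-low median, and 4 and 9 exceeded the highest Fos-low library. Ranked within blocks, Junb kept a ratio of 2.33 and its call, while Jun had 1.35 and was not called. Jund, a Jun protein made without stimulation, stood at 130.5 pooled CPM in Fos-high against 109.8 in Fos-low neurons and was not called. Atf3, a stress-induced member, stood at 50.6 pooled CPM in Fos-high against 12.95 in Fos-low neurons but had a count in 11 Fos-high and 7 Fos-low libraries and was not called, and its ratio was 0.965 within blocks. Fosl1 and Fosl2, further Fos paralogs, were below the expression filter with 161 and 356 counts over all Fos-high libraries, against 0 and 15 counts over all Fos-low libraries.

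**Figure D2:**
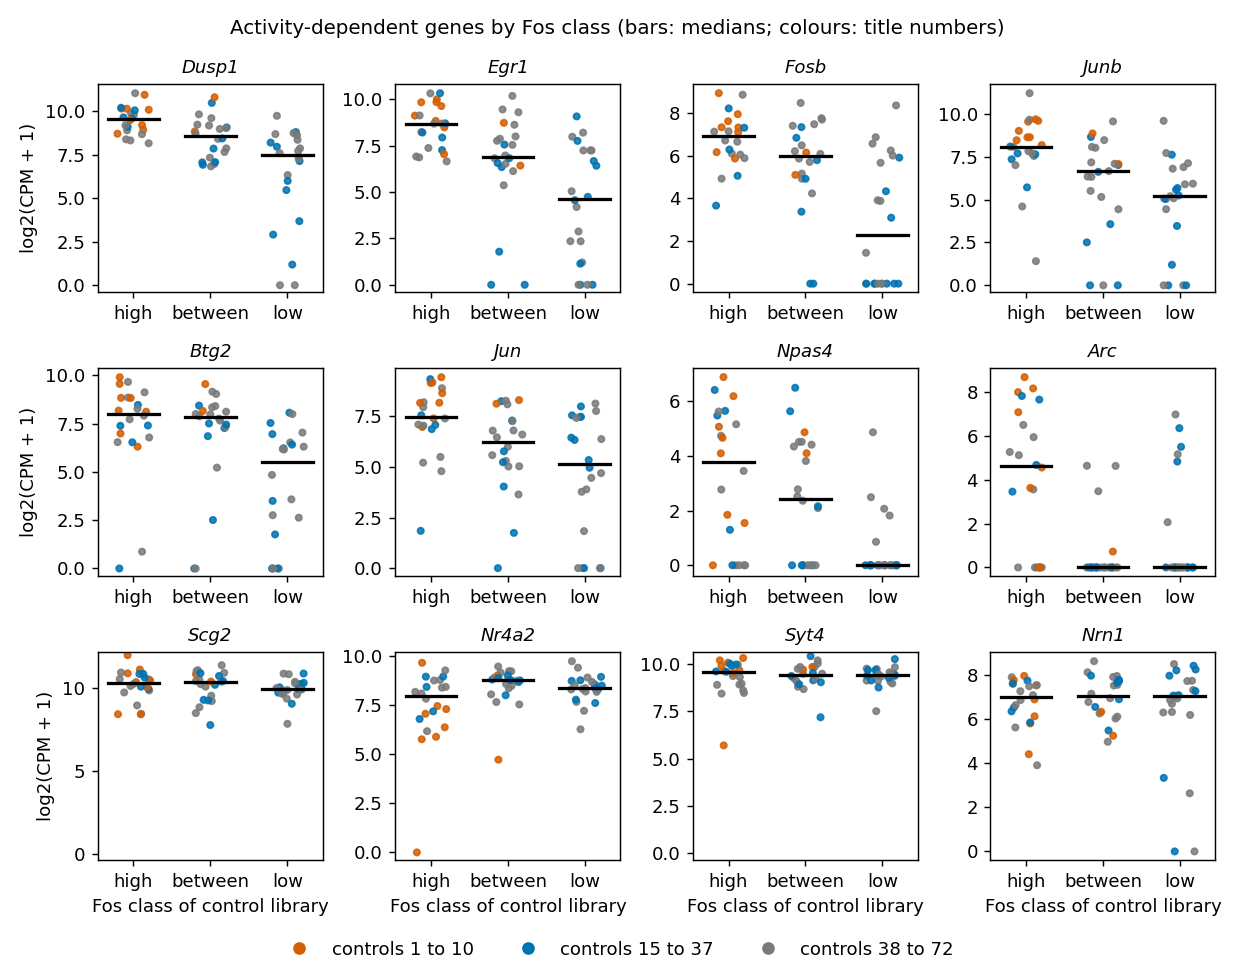
Level of 12 activity-dependent genes, as log2(CPM + 1), in the Fos-high, in-between and Fos-low control libraries (22 each), with 1 point per library coloured by block and a bar at the median. Dusp1, Egr1, Fosb, Junb and Jun step down from high to low with overlapping ranges, whereas Scg2, Nr4a2, Syt4 and Nrn1 lie at similar levels in all 3 classes.

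Other early transcription regulators were called higher in 9 of 14 expressed cases (25 listed) and lower in 0, with a median log2 ratio of 1.63, and in 7 cases both within blocks and without controls 1 to 10. Egr1, a zinc-finger factor that follows MAP kinase signalling, ranged from 99.7 to 1285 CPM (median 411) in Fos-high and from 0 to 539.7 CPM (median 24.2) in Fos-low libraries. Every Fos-high library lay above the Fos-low median, and 8 lay above the highest Fos-low library. The pooled ratio was 5.34 (5.09 to 5.601), and the share of pairs 0.903. Btg2, an antiproliferative regulator of transcription and mRNA decay, ranged from 0 to 955 CPM (median 258) in Fos-high and from 0 to 267 CPM (median 49.02) in Fos-low libraries. Its pooled ratio was 4.77 (4.51 to 5.04), and 11 Fos-high libraries exceeded the highest Fos-low one.

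Npas4, a neuronal factor switched on selectively by calcium entry, was sparse: it had a count in 16 of 22 Fos-high and 5 of 22 Fos-low libraries, at medians of 13 CPM in Fos-high and 0 CPM in Fos-low libraries. Its pooled ratio was 12.3 (8.92 to 17.4). Control 61 held 65% of the Fos-low counts of Npas4, and without the highest library of each end the ratio was 28.5. It was 3.92 within blocks and 9.89 without controls 1 to 10, called higher in both. Ier2, Bhlhe40, Egr4, Klf4, Nfil3 and the clock gene Per1 had pooled ratios of 3.49, 3.14, 3.05, 3.18, 2.90 and 1.66 and shares of pairs from 0.653 to 0.752. Egr4 and Klf4 were not called within blocks, and Egr4, Nfil3 and Per1 were not called without controls 1 to 10, whereas Ier2 and Bhlhe40 were called in both. For Klf4, a zinc-finger factor, control 42 alone held 34.7% of the Fos-high counts.

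The NR4A receptors gave no call. Nr4a1, the classic early member, stood at 86.7 pooled CPM in Fos-high against 20.8 in Fos-low neurons, but its share of pairs of 0.634 missed the call, which it met without controls 1 to 10 and missed within blocks. Nr4a2, which dopaminergic neurons need for their identity and express at rest, stood at 290.2 pooled CPM in Fos-high against 359 in Fos-low neurons, with libraries from 0 to 815 CPM (median 251) in Fos-high and from 76.7 to 861 CPM (median 334) in Fos-low neurons. Klf6, Zbtb11 and Crem, a repressor of cyclic AMP responses, had ratios of 1.23, 0.876 and 0.627 and were not called. The other 11 listed regulators, among them Egr2, Egr3, Nr4a3 and Srf, were below the expression filter.

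Some of the inducible inhibitors that shut the response down were called higher in Fos-high neurons. Of 21 listed genes 16 were expressed, with 7 called higher, 0 lower and a median log2 ratio of 0.98. Within blocks 4 were called (Dusp1, Errfi1, Trib1 and Ier3) and without controls 1 to 10 also 4 (Dusp1, Dusp14, Spry2 and Errfi1). Dusp1, which removes the activating phosphates from MAP kinases, ranged from 284 to 2088 CPM (median 741) in Fos-high and from 0 to 849 CPM (median 179) in Fos-low libraries. Every Fos-high library exceeded the Fos-low median, 9 exceeded the highest Fos-low library, and 15 Fos-low libraries lay below the lowest Fos-high one. The pooled ratio was 3.33 (3.23 to 3.43) and the share of pairs 0.932.

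Spry2, which restrains receptor tyrosine kinase signalling, stood at 51.9 pooled CPM in Fos-high against 11.7 in Fos-low neurons, a ratio of 4.43, but its log2 ratio was -0.28 when neurons were ranked within blocks. Errfi1, an inhibitor of the EGF receptor, had a ratio of 2.83, and 4.06 within blocks. Dusp14, a phosphatase of the Dusp1 family, had 2.48, and 1.49 within blocks without a call. Sik1, a kinase that dampens CREB coactivators, had 8.17. Control 7 held 39.3% of the Fos-high counts of Sik1, control 23 held 74.5% of its Fos-low counts, and without both the ratio was 19.5. It was 2.35 within blocks and 2.09 without controls 1 to 10, with no call in either. Zfp36, which speeds the decay of inducible mRNAs, had a count in 11 Fos-high libraries and in 1 Fos-low library, control 63, and was not called within blocks (ratio 1.22) or without controls 1 to 10 (2.38). Dusp6, a phosphatase for ERK, had a ratio of 1.74, with 50.8% of its Fos-high counts in control 1, and its log2 ratio was -0.42 without controls 1 to 10. It was not called within blocks.

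The 9 inhibitors not called were Trib1, Nfkbia, Socs3, Ier3, Gadd45g, Spry4, Rgs2, Rasd1 and Gadd45b, with pooled ratios from 0.654 for Gadd45b to 9.57 for Trib1. Trib1, a pseudokinase, had a count in 10 Fos-high and 6 Fos-low libraries. Within blocks Trib1 and Ier3 were called higher, with ratios of 39.5 and 4.10, and without controls 1 to 10 they were not. Rgs2, a brake on G protein signalling with a count in 22 Fos-high and 21 Fos-low libraries, had a ratio of 1.02.

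The later effectors gave few calls. Of 24 listed genes 19 were expressed, 2 were called higher and 0 lower, and the median log2 ratio was 0.25, against 0.04 for all expressed genes. Arc, which reaches synapses and removes glutamate receptors, had a count in 15 Fos-high and 6 Fos-low libraries. Its median was 23.7 CPM and its highest value 414 CPM in Fos-high libraries, against 0 and 126 CPM in Fos-low libraries. Its pooled ratio was 4.98 (4.42 to 5.63), 1.41 within blocks without a call, and 2.39 without controls 1 to 10 with one. Cyr61, a secreted matrix protein, had a ratio of 11.54, with counts in 11 Fos-high and 3 Fos-low libraries, and its log2 ratio was -0.96 within blocks. Plk3, a polo-like kinase, was the 1 effector called higher within blocks, at a ratio of 2.02, and had 1.24 in the full ranking.

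Among effectors, Scg2, Syt4 and Nrn1 were close to level by pooled CPM. Scg2, a granin of dense-core vesicles whose promoter holds the full element, ranged from 333 to 3952 CPM (median 1236) in Fos-high and from 224 to 1836 CPM (median 957) in Fos-low libraries, a pooled ratio of 1.26. Syt4, a synaptotagmin of secretory vesicles, had a ratio of 1.02, and Nrn1, a membrane-anchored growth factor, 0.999. Bdnf, the activity-regulated neurotrophin, had a pooled ratio of 1.03, with medians of 23.3 CPM in Fos-high and 0.818 CPM in Fos-low libraries and counts in 18 Fos-high and 11 Fos-low libraries. Vgf, a neuropeptide precursor, stood at 38.7 pooled CPM in Fos-high against 82.6 in Fos-low neurons and was not called. Ptgs2 was below the filter, with 167 counts over all Fos-high libraries against 1 over all Fos-low libraries.

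The promoter windows did not differ plainly between the early genes that were called and those that were not. RefSeq windows were found for 39 of the 54 expressed early genes, 15 of them called higher. The full element, searched on both strands, was in 3 of these 15 genes (Btg2, Dusp1 and Errfi1) and in 6 of the 24 not called, against 4.05% of expressed genes and 2.03% of all genes with a window. The core TGACG, or CGTCA on the other strand, which every full element contains, was in 10 of 15 called and 15 of 24 uncalled genes, against 38.9% of expressed and 23.05% of all genes. A CArG box, the site of serum response factor, was in 1 called gene, Zfp36, and an AP-1 site, TGANTCA, in 0 of 15 called genes and 2 of 24 not called. On both strands, these motifs were in 1.53% and 5.67% of expressed genes. Scg2 and Th, shown above with the full element, had pooled ratios of 1.26 and 0.939. A match is a description of letters, not of binding, and the windows leave out enhancers.

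The pathway from calcium, cyclic AMP and MAP kinases to Fos was mostly level at the transcript. Of 38 listed genes 32 were expressed, with a median log2 ratio of 0.19. Of the 32, 2 were called higher, a share near the 4.99% of all expressed genes, and 0 were called lower. The called genes were Camkk2, a calcium-activated kinase kinase, at 75.1 pooled CPM in Fos-high against 38.1 in Fos-low neurons, and Ppp3ca, the catalytic subunit of calcineurin, at 408 pooled CPM in Fos-high against 245 in Fos-low neurons. Neither was called when neurons were ranked within blocks or without controls 1 to 10. There the calls were Camk4, a calcium-activated kinase, higher within blocks, and Mapk3, the kinase ERK1, lower without controls 1 to 10.

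Most dopaminergic identity transcripts had lower pooled levels in Fos-high neurons, and 4 of 25 were called lower, against 2.16% of all expressed genes. Of 25 expressed identity genes 22 had a log2 ratio below 0, 4 were called lower and 0 higher, and the median was -0.43. That median was -0.08 without controls 1 to 10, with 2 called lower, and -0.01 when neurons were ranked within blocks, with 1. It was -0.20 for the Fos-high and Fos-low neurons of controls 38 to 72, and -0.37, with 5 called lower, without the tenth of libraries highest in glial markers. Lower calls over all expressed genes numbered 184 without controls 1 to 10, 136 within blocks and 310 without those glial libraries. Between the ends of a Fos ranking of the experiment neurons the identity median was -0.54, with 9 of the 25 genes above 0. Th, tyrosine hydroxylase, ranged from 1128 to 27011 CPM (median 7748) in Fos-high and from 4194 to 17764 CPM (median 9266) in Fos-low libraries, a pooled ratio of 0.939, and 1.19 without controls 1 to 10. Slc6a3, the dopamine transporter, Slc18a2, the vesicular monoamine transporter, and Ddc, the decarboxylase, had pooled ratios of 0.75, 0.837 and 0.779 and were not called.

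The 4 genes called lower were Nrip3, Chrna6, Gfra1 and Kcnj6. Nrip3, a nuclear receptor interacting protein, stood at 462 pooled CPM in Fos-high against 861 in Fos-low neurons, and it was called lower also within blocks, with a ratio of 0.653, and without controls 1 to 10. Chrna6, the nicotinic receptor subunit typical of these neurons, stood at 435 pooled CPM in Fos-high against 748 in Fos-low neurons. It kept its call without controls 1 to 10 and missed it within blocks, at a ratio of 0.681. Kcnj6, the GIRK2 channel opened by dopamine autoreceptors, stood at 35.4 pooled CPM in Fos-high against 94.7 in Fos-low neurons, with 40.7% of the Fos-low counts in control 46. Kcnj6 and Gfra1 were not called within blocks or without controls 1 to 10.

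Subtype markers of the dorsal tier and ventral tegmental area had higher pooled levels in Fos-high neurons in the full ranking of control neurons. All 9 expressed genes of that list (12 listed) had a log2 ratio above 0, with a median of 1.24, but 1 was called, and the median was 0.02 without controls 1 to 10 and 0.22 within blocks. The called gene was Cck, the neuropeptide cholecystokinin, which ranged from 2.14 to 1428 CPM (median 184) in Fos-high and from 0 to 762 CPM (median 72.4) in Fos-low libraries. Cck kept its call within blocks (ratio 2.04) and without controls 1 to 10 (1.58). Slc17a6, the vesicular glutamate transporter, stood at 96.6 pooled CPM in Fos-high against 11.9 in Fos-low neurons without a call. The ventral-tier list had 6 expressed genes, 0 called, and a median of -0.75, and its member Sox6 stood at 19.99 pooled CPM in Fos-high against 53.2 in Fos-low neurons. Both medians had the opposite sign between the ends of a Fos ranking of the experiment neurons. There the dorsal and ventral tegmental list had -0.62, with 2 of 9 genes above 0. The ventral-tier list had 0.40, with 4 of 6 above 0.

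Genes of excitability and release were near level as lists in the full ranking, apart from the channels, of which 17 of 25 had a log2 ratio below 0. Medians were -0.31 for 25 pacemaking and spiking channels, -0.02 for 16 glutamate receptors, 0.05 for 13 GABA receptors, -0.04 for 35 synaptic vesicle genes and 0.11 for 14 granins and neuropeptides. Among channels Kcnd3, an A-type potassium channel, was called lower at 104.4 pooled CPM in Fos-high against 163 in Fos-low neurons. Vamp1 and Syn2, vesicle proteins, were called higher with ratios of 3.57 and 3.08, and Rab3c, a vesicle GTPase, lower with 0.652. None of these 4 was called within blocks or without controls 1 to 10. The channel subunit Scn2b, not called in the full ranking, was called lower in both, and Scn1a lower without controls 1 to 10.

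Stress and energy lists gave few calls. Of 18 cytosolic heat shock genes, Cryab and Hspa1a were called higher, with a list median of 0.09. Cryab, a small heat shock protein that oligodendrocytes also express, had a ratio of 19.6 and 35.5% of its Fos-high counts in control 65, the library with the most Fos. Hspa1a, inducible Hsp70, stood at 19.2 pooled CPM in Fos-high against 6.66 in Fos-low neurons with a count in 17 Fos-high and 10 Fos-low libraries. Neither was called within blocks or without controls 1 to 10. In the integrated stress list (16 expressed, median 0.18), Ppp1r15a, which restores translation after stress, was called higher with a ratio of 2.10, and its log2 ratio was -0.51 within blocks. In the endoplasmic reticulum list (17 expressed, median -0.20), Pdia4, a disulfide isomerase, was called lower with a ratio of 0.498, without controls 1 to 10 too but not within blocks. Medians were 0.18 for 82 ribosomal protein genes, 0.05 for 75 nuclear-encoded respiratory genes, -0.05 for 18 glycolytic genes and -0.26 for 8 mitochondrial-genome genes, each list with 0 calls. The mitochondrial median was 0.26 without controls 1 to 10. Ribosomal levels are uncertain, because processed pseudogenes share their reads.

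Transcripts of oligodendrocytes, the myelin-forming glia, had a higher median sum in Fos-high libraries, while in-between and Fos-low libraries were alike. The 10 oligodendrocyte markers summed to 72.4 to 9518 CPM (median 1436) in Fos-high and 38.7 to 9709 CPM (median 343) in Fos-low libraries, and 0 libraries of either end were without them. In-between libraries had a median of 357 CPM. Controls 1 to 10, with a block median of 2147 CPM, gave 8 of the Fos-high and 0 of the Fos-low libraries. Of 9 expressed markers 5 were called higher, among them Mal, Cldn11, Cnp and Mog, and 0 lower, with a median log2 ratio of 3.41. The median log2 ratio was 2.37 within blocks and 3.22 without controls 1 to 10, each with 0 members called. These ratios pool counts, and controls 65 (9518 CPM) and 54 (5678 CPM) had the highest marker sums of the Fos-high end. Median sums are not given for these 2 settings, so the part of the block in the gap between 1436 and 343 CPM was not tested. Without the tenth of control libraries highest in glial markers, 19 early genes were called higher, among 427 higher calls in all. The oligodendrocyte median there was still 2.19 with 4 markers called higher. The part of neighbouring glia in these calls was not tested.

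Other cell types gave less. Astrocyte markers summed to medians of 201 CPM in Fos-high and 180.4 CPM in Fos-low libraries, and Aqp4, a water channel, was the 1 of 8 expressed markers called higher, with counts in 10 Fos-high and 3 Fos-low libraries. Aqp4 passed the expression filter through the Fos-high end only. Microglial markers had medians of 119.7 CPM in Fos-high and 151 CPM in Fos-low libraries, with 0 of 7 called, while Csf1r was called higher both within blocks and without controls 1 to 10. Of 2 expressed precursor markers Olig1 was called higher, also within blocks. Summed GABAergic markers had medians of 75.8 CPM in Fos-high and 61.8 CPM in Fos-low libraries, and Gad2 and Gad1 were called higher of 3 expressed, with a list median of 1.07 that was -1.21 without controls 1 to 10. Endothelial and mural markers summed to a median of 0 CPM at both ends, blood markers to 0.912 CPM in Fos-high and 0.319 CPM in Fos-low libraries, and 0 of their genes were expressed by the filter. Of 4 expressed sex-linked transcripts Ddx3y, on the Y chromosome, was called higher at 123 pooled CPM in Fos-high against 58.02 in Fos-low neurons. Ddx3y was not called within blocks or without controls 1 to 10. Within blocks Kdm5d was called higher and Uty lower, and without controls 1 to 10 no sex-linked transcript was called.

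**Figure D3:**
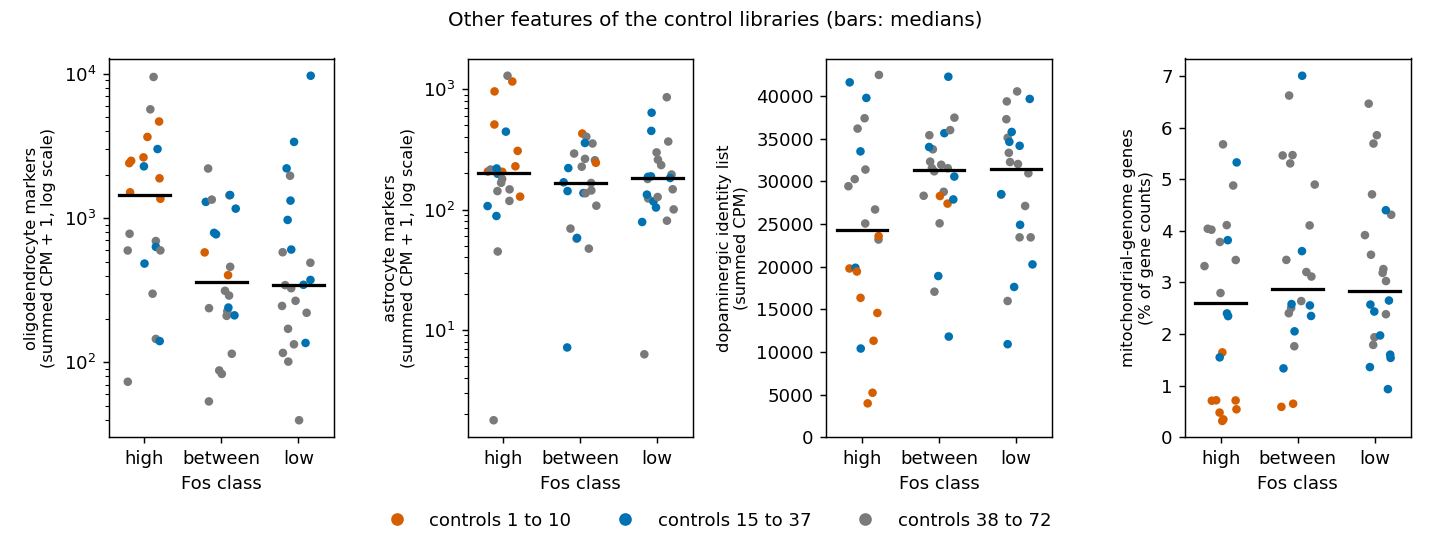
Summed oligodendrocyte and astrocyte markers (CPM + 1, log scale), summed dopaminergic identity list (CPM) and share of mitochondrial-genome counts (%), by Fos class of the control libraries (22 each), with 1 point per library coloured by block and a bar at the median. Oligodendrocyte markers have medians of 1436 CPM in Fos-high, 357 CPM in in-between and 343 CPM in Fos-low libraries. Controls 1 to 10 stand mostly low in the last 2 panels.

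Outside the lists, the genes ranked first by share of pairs were mixed in function. Besides the early genes, the first 15 higher genes held Tbck, a regulator of mTOR signalling, at 129.1 pooled CPM in Fos-high against 49.3 in Fos-low neurons (share of pairs 0.845), and Mrps34, a mitochondrial ribosomal protein, at 47.5 pooled CPM in Fos-high against 27.6 in Fos-low neurons (0.806). Nfic, a nuclear factor I protein, had a ratio of 3.09 and was called also within blocks (2.27). Control 60 held 50.4% of the Fos-low counts of Nfic, and without the highest library of each end the ratio was 4.74. Tbck (1.24) and Mrps34 (1.31) were not called within blocks. Car2, a carbonic anhydrase that oligodendrocytes also express, Git1, Iws1 and Phldb1 completed the list, with ratios of 4.72, 6.22, 2.72 and 9.29, and of these 4 Git1 was not called within blocks.

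The first 12 lower genes were led by Ppp1r35, a centrosomal protein, which ranged from 0 to 65.2 CPM (median 1.55) in Fos-high and from 0 to 228 CPM (median 48.7) in Fos-low libraries. In 1 of 22 Fos-high libraries it exceeded the Fos-low median, and its ratio was 0.346 (0.312 to 0.382). Pdzd11, a small PDZ protein, followed with 0.474. Both were called lower also within blocks and without controls 1 to 10. Cadm2, Acot13, Mrps30, Tmem38a, Habp4, Lix1, Ocrl, Apba1, Rnaseh2c and Tmem196 had ratios from 0.371 for Ocrl to 0.657 for Apba1. Mrps30, Ocrl and Rnaseh2c kept their calls within blocks and without controls 1 to 10, and Acot13 and Tmem38a kept theirs only without controls 1 to 10. Cadm2, Habp4, Lix1, Apba1 and Tmem196 were not called in either. These 12 genes belong to none of the 29 gene lists.

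The 22 control neurons ranked between the ends show how graded the differences were. The in-between mean lay between those of the ends for 324 of 456 genes called higher (71.1%) and 149 of 197 called lower (75.6%), against 34.99% of all expressed genes. A gene called for a gap between the ends has more room for a value between them, so the larger shares carry no further reading. Median Dusp1 was 741 CPM in Fos-high, 382 in in-between and 179 in Fos-low libraries, and median Egr1 was 411 CPM in Fos-high, 118.6 in in-between and 24.2 in Fos-low libraries. Median Btg2 was 258 CPM in Fos-high, 225.4 in in-between and 49.02 in Fos-low libraries, with a share of pairs of 0.554 for Fos-high over in-between and 0.810 for in-between over Fos-low. For Arc the shares were 0.793 for Fos-high over in-between and 0.436 for in-between over Fos-low.

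The 38 experiment neurons, which the control ranking did not use, were ranked by their own Fos, and the 13 highest (1257 to 10251 CPM) were set against the 13 lowest (0 to 778 CPM). Median oligodendrocyte sums were 3119 CPM at the Fos-high and 613 CPM at the Fos-low end. Astrocyte sums had medians of 332 and 219 CPM, and microglial sums 148 and 323 CPM. Experiments 52 and 27, with the most Fos, had astrocyte sums of 5112 and 7920 CPM. Their dopaminergic identity sums were 5484 and 1276 CPM. The part of these differences in the calls was not tested. Of 8783 expressed genes, 908 were called higher (10.3%) and 470 lower (5.35%). Shared with the control calls were 56 higher genes, which are 12.3% of the control and 6.17% of the experiment calls, and 8 lower genes, 4.06% and 1.70%. Of the 21 early genes called in control neurons, 14 had a log2 ratio above 0 in experiment neurons, with a median of 0.91, and 9 were called higher: Jun, Junb, Egr1, Ier2, Bhlhe40, Per1, Dusp1, Dusp6 and Errfi1. Of the 428 other genes called higher in control neurons, glial markers set apart, 210 (49.1%) were above 0 there, with a median of -0.03. In experiment neurons 45 of these 428 were called higher and 18 lower. Of the 197 genes called lower in control neurons, 88 were above 0 in experiment neurons, where 19 were called higher and 8 lower.

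Single early genes differed between the 2 sets of neurons. Jun ranged from 8.89 to 1238 CPM (median 437) at the Fos-high end of the experiment neurons and from 0 to 408 CPM (median 93.3) at the Fos-low end, a ratio of 2.59. Dusp1 ranged from 227 to 1530 CPM (median 643) at the Fos-high end and from 0 to 791 CPM (median 514) at the Fos-low end, a ratio of 1.69. Btg2, 4.77-fold higher in Fos-high control neurons, had a ratio of 0.857 in experiment neurons, and its rho with Fos over the 38 was 0.094. Whether these differences between the sets exceed the spread of animals was not tested. Fos had a rho with the summed inhibitors of 0.645 in control and 0.401 in experiment neurons, with the summed AP-1 genes of 0.614 and 0.395, and with oligodendrocyte markers of 0.348 and 0.360.

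**Figure D4:**
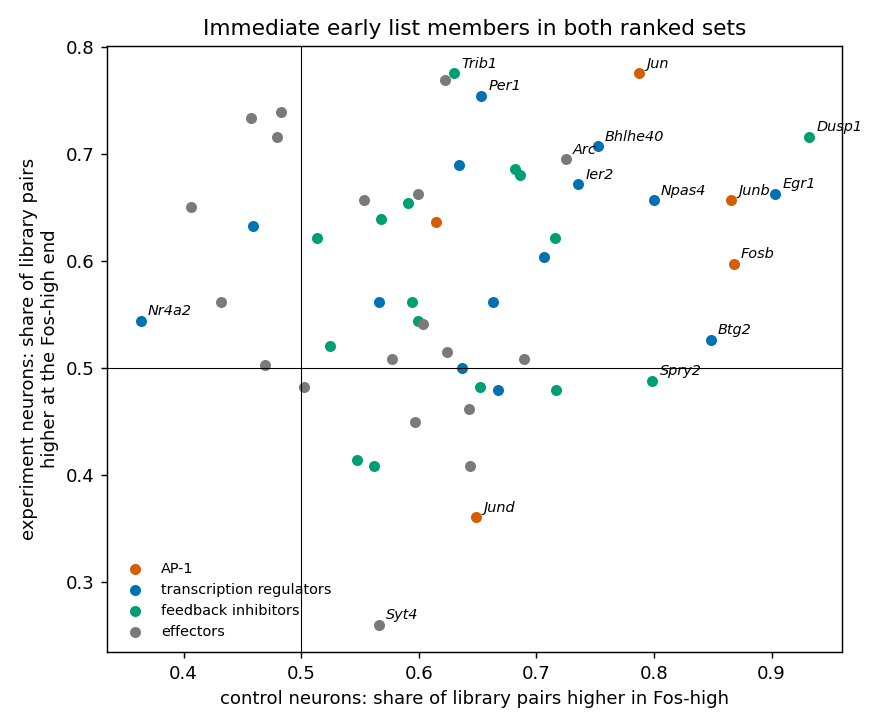
Share of library pairs in which the Fos-high library is the higher one, for the expressed members of the 4 early gene lists, in control neurons (horizontal, 22 against 22) and in experiment neurons (vertical, 13 against 13), with lines at 0.5. Jun, Dusp1, Egr1 and Junb lie above 0.5 on both axes, while Btg2 is at 0.848 in control and 0.527 in experiment neurons.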

How the data were processed

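The authors deposited counts as 1 table of unnormalized whole numbers by gene symbol, covering 104 Smart-seq2 libraries of single mouse neurons. The submitters' processing notes name STAR 2.5.3a, featureCounts 1.5.3 and mm10. Annotation, strandedness and multimapping rules: not given in the sources used here. Overlapping or antisense genes may therefore share reads. The table held 45808 gene rows and 92 ERCC rows, which stayed out of library totals.

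Control libraries were ranked by Fos CPM and 22 taken from each end. For each gene the counts were pooled per end, with exact Poisson intervals for levels and exact binomial intervals for ratios (95%), both covering counting error only, since reads carry no molecular identifiers. The mean library CPM weights libraries equally. Genes were expressed at a pooled CPM of at least 10 with a count in at least 25% of the libraries of an end. Group sums below 3 counts were raised to 3 for ratios. The labels name no animal, so no test was made. The call rule was checked on simulated counts. To compare depths, libraries were thinned to 400000 counts.

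The members and the 29 gene lists were chosen with earlier results of these data known. Named genes are the first 15 higher and 12 lower by share of pairs among called genes with the same direction in both title sets (controls up to 37 and from 38), leaving out gene models, ribosomal, mitochondrial and sex-linked genes, plus all expressed early genes and up to 4 genes of each other list. Alternatives changed the weighting, scale, normalization (edgeR 4.0.16 TMM, DESeq2 1.42.0 size factors), library total, group size, thinning, title set, glial, ERCC and gene-number subsets, single libraries, filter and thresholds. Computation used Python 3.11.15, numpy 2.4.6, pandas 2.3.3, scipy 1.17.1 and R 4.3.3. Promoter windows come from RefSeq, GRCm38.p6. A few genes are left out of the results given here.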

Additional observations from a re-analysis of the deposited data

How the results depend on the processing

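Dusp1, Egr1, Fosb, Junb and Btg2 kept a log2 ratio above 0 in all 16 alternatives for single genes, at 0.94 to 3.13, 1.33 to 4.17, 0.93 to 3.91, 0.98 to 3.17 and 0.79 to 3.08. These genes were picked by rho with Fos in the same control libraries, so their signs are not independent of that choice. Counts of called genes moved more. Higher (456) and lower (197) calls were 843 and 665 for 11 against 11 neurons, 133 and 103 for 33 against 33, 1132 and 579 in title set 1 (13 against 9), 824 and 561 in set 2 (9 against 13), and 979 and 664 among libraries low in ERCC share (10 against 12). They were 848 and 441 among libraries with many genes detected (11 against 12, added after seeing the data), 281 and 73 at 2-fold, and 44 and 8 at a share of pairs of 0.75. Higher calls were 287 within blocks, and lower calls 383 on thinned counts and 310 with the most glial libraries removed. Of the 456 and 197 genes, 125 and 47 were also called within blocks. Early genes called higher (21) were 12 for 33 against 33 and 9 at 0.75. The AP-1 median (1.60) was 2.73 on the log2(CPM + 1) scale (all genes 0.11), 2.09 for 11 against 11 and 2.27 without each gene's highest libraries; the inhibitor median (0.98) was 1.89 for 11 against 11. The effector median (0.25) was 0.48 on the log2(CPM + 1) scale and 0.50 with many genes detected. The dopaminergic median (-0.43) was -0.61 in title set 1, -0.077 without controls 1 to 10 and -0.0092 within blocks. Signs turned for the ribosomal median in title set 1 (-0.0056) and for the mitochondrial median in title set 2 (0.17), without controls 1 to 10 (0.26), within blocks (0.26) and with many genes detected (0.30). The GABAergic median turned in title set 2 (-1.24), without controls 1 to 10 (-1.21) and within blocks (-0.57), as did Gad1 (-1.24, -1.40 and -0.57), and Gad2 in the first 2 (-1.25 and -0.82). Of 976 values for 61 called genes 15 turned, in 10 genes. Within blocks these were Spry2 (-0.28), Cyr61 (-0.96), Ppp1r15a (-0.51) and Syn2 (-0.023). Klf4 (-0.10) and Ddx3y (-0.021) turned in title set 1, and Zfp36 (-0.87) at low ERCC share. Dusp6 turned for 33 against 33 (-0.22), without controls 1 to 10 (-0.42) and with many genes detected (-0.36). Causes were not tested. No paired analysis was possible because the ends hold different neurons and their title numbers pair none of them. Single neurons at this depth give sparse values for genes such as Npas4, Arc and Zfp36, so absence of a count is not absence of the transcript.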
